A study of Rattus norvegicus with 10 samples.

Results

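Macrophages and their monocyte precursors enter mammary tumors from the blood or live in the gland as resident cells. They depend on the growth factor CSF1 and its receptor, read antibody-coated targets through Fc receptors, take up debris through scavenger receptors and sense microbial and tissue damage signals through pattern recognition receptors. Their transcripts were followed here in chemically induced rat mammary tumors before and after adriamycin (doxorubicin, an anthracycline that inhibits topoisomerase II). The gene list held 40 macrophage and myeloid symbols, and a gene was measured where the array's annotation gave its symbol alone to a probe set. That held for 34 of the 40, each read from its brightest probe set over the 10 arrays, among 14217 genes in all. Spi1, Siglec1, Vsig4, Msr1, Marco and Slc11a1 were not analysed here. All 34 measured genes passed the filter on dim probe sets, as did 12255 genes of the whole array. A stricter filter that dropped the dimmest 50% of probe sets kept 30 members and left out Csf2rb, Cd163, Ncf1 and Cd86.

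The 5 final samples came from tumors of female Sprague-Dawley rats aged 19 weeks, given adriamycin intravenously at 1 mg/kg per week for 6 weeks after the biopsy. The 5 basal samples were untreated needle biopsies of the tumors with the same codes, 09I1, 11D2, 12I1, 29I1 and 43D1, taken at 12 weeks of age. All 10 samples share induction by the carcinogen DMBA (7,12-dimethylbenz(a)anthracene, 100 mg/kg by mouth). The tumors had been chosen as histological grade II. The sample labels call the final samples total tumor, taken at sacrifice, whereas the design text calls them trucut samples. With no untreated tumor at 19 weeks, the effects of treatment, age, kind of sample and the separate run of array codes in each group cannot be told apart. Whether any of the tumors shared a rat is not given, and p-values then measure only the spread between tumors. Values are on the log2 scale. In bulk tumor RNA, fewer cells of a type and less RNA per cell cannot be told apart.

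Array medians were alike, at 5.93 to 6.12 on the log2 scale. One array stood apart, that of the final 09I1 sample: its median correlation with the other arrays was 0.938, against 0.975 to 0.984 for the other 9, and its 3' beta-actin control exceeded the 5' control by 2.61 log2 units, against 0.72 to 0.96. The main counts, and the mean changes of several members, are therefore also given without 09I1. All 12 epithelial markers examined, Epcam, Cdh1 and keratins among them, passed the filter on dim probe sets.

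No myeloid gene rose or fell across the 5 tumors past the threshold, an adjusted p under 0.05 over all probe sets tested with limma. The count of members called was 0 of 34, beside 0% of all 12255 genes. At an unadjusted limma p under 0.05 the members numbered 0 higher and 0 lower, where 1.78% of all genes were higher and 1.10% lower. The members' adjusted p-values from limma ran from 0.977 to 1.00, and every member's 95% interval included 0. No member was higher in 5 of 5 tumors (3.33% of all genes were) and none was lower in 5 of 5 (2.51% of all genes). The final and basal arrays overlapped for every member, whereas 0.840% of all genes did not overlap.

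Mean changes over the tumors were small beside their spread. The members' mean changes ran from -0.58 to 0.28 log2 units with limma standard errors of 0.13 to 0.53, and 31 of the 34 lay within 0.5 log2 units of no change. Mean changes were above 0 for 12 members and below 0 for 22, while 52.7% of all genes were above 0. The members' median change was -0.07, against 0.01 for all tested genes. Its sign was not stable: the median was 0.07 without 12I1, 0.20 without 29I1 and 0.11 with array weights, but -0.06 without 09I1 and -0.29 without either 11D2 or 43D1. Without 09I1, 15 members were above 0 and 19 below, and the sign differed for 7 members (Csf2ra, Ptprc, Fcgr1a, Lyn, Mrc1, Tlr4 and Cybb). The 95% intervals had a median width of 1.64 log2 units.

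Within single tumors most members shared a direction, and that direction differed between tumors. In 43D1, 33 of the 34 members were higher in the final sample (48.9% of all genes were), with a median of 0.79 and Lcp1 as the exception. In 11D2, 30 were higher (47.1% of all genes), with a median of 0.52 and Fcgr3a, Cd14, Tlr2 and Spp1 as exceptions. In 29I1 only Cd14 was higher (45.7% of all genes), and the median was -1.15. In 12I1 the 4 higher members were Csf2rb, Lyn, Tlr2 and Tlr4 (56.9% of all genes), and the median was -0.55. In 09I1, whose final array stood apart, 14 were higher (58.6% of all genes), and the median was -0.10. Each tumor gave 1 array per time, so these changes have no replicate check and no test. The median over all genes lay between -0.04 and 0.15 in every tumor. Levels were also set against each gene's own mean over the 10 arrays. On basal arrays the members' median was then 0.97 in 29I1, 0.41 in 12I1, -0.29 in 11D2 and -0.72 in 43D1. On the final arrays of these tumors it was -0.20, -0.15, 0.26 and 0.09. The split between tumors and the order of basal biopsies given below share these basal values and are not separate results.

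**Figure D1:**
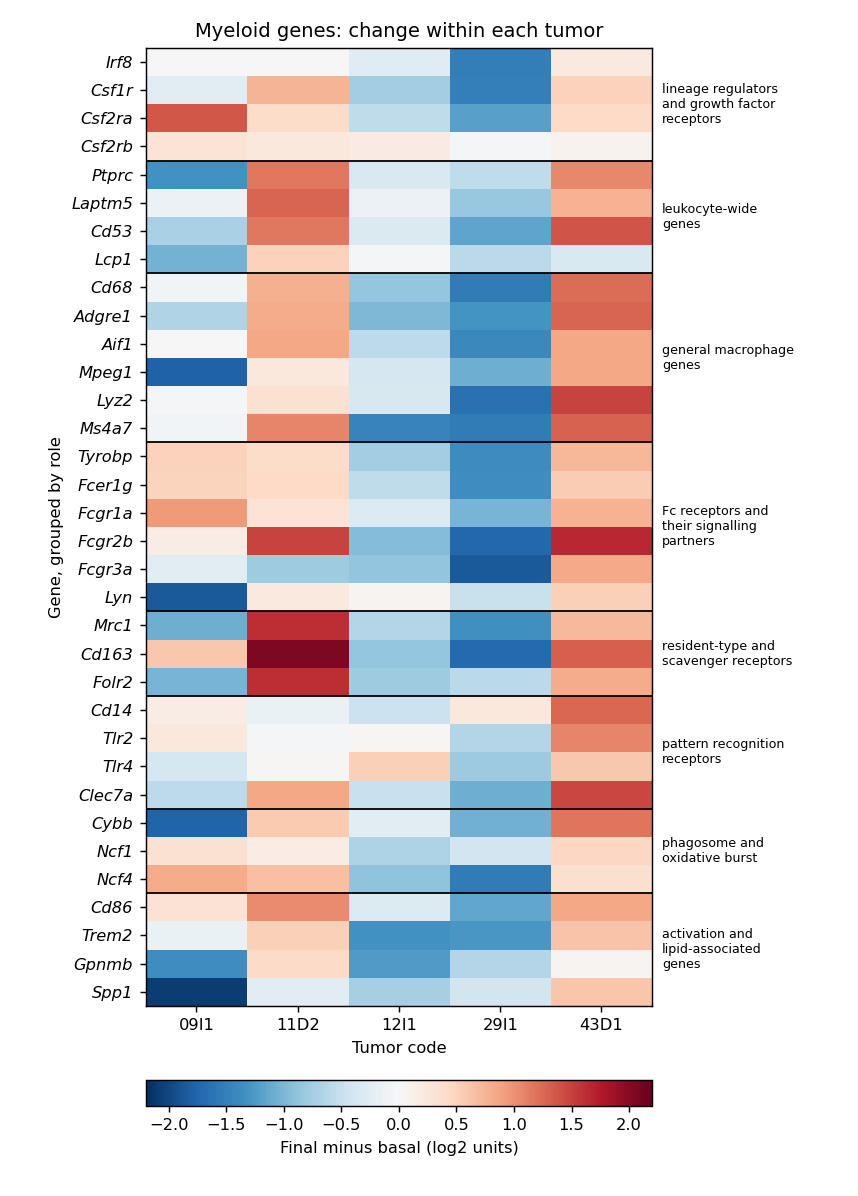
Final minus basal in log2 units for each of the 34 measured myeloid genes (rows, grouped by role) in each of the 5 tumors (columns), red for higher and blue for lower in the final sample. The 43D1 and 11D2 columns are mostly red (33 and 30 of 34 genes higher), the 29I1 and 12I1 columns mostly blue (1 and 4 of 34 higher), and 09I1 is mixed (14 of 34).

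Changes of at least 1 log2 unit (2 times) showed the same split. In 29I1, 22 members were lower by that much and 0 higher, where 5.83% of all genes were lower and 1.60% higher. In 43D1, 12 members were higher and 0 lower, beside 3.75% and 2.93% of all genes. In 11D2, 9 were higher and 0 lower, beside 3.48% and 1.19%. In 12I1, Ms4a7, Trem2 and Gpnmb were lower and 0 were higher, beside 2.23% lower and 1.96% higher among all genes. In 09I1, 9 were lower and Csf2ra alone was higher, beside 8.50% lower and 12.2% higher. A higher final level in both 11D2 and 43D1 with a lower one in both 12I1 and 29I1 was found in 26 members, against 7.31% of all genes. That 4-tumor pattern was written down after the values had been seen, so the comparison is a description. The 8 members off it were Csf2rb, Lcp1, Fcgr3a, Lyn, Cd14, Tlr2, Tlr4 and Spp1.

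PU.1, the protein that Spi1 encodes, is a lineage factor of myeloid cells that binds DNA around a GAGGAA core. The 250 bases before the start site were examined for 25 of the 34 genes, the number with an entry in RefSeq's promoter table (GRCr8). GAGGAA stood on either strand in 16 of these 25 windows (64.0%), against 23.2% of all 27457 windows of that length. Letters of this kind are a description of the window, not evidence of binding. No match stood in the windows of Mpeg1, Ms4a7, Cd163, Folr2, Ncf1, Irf8, Clec7a, Tlr2 and Spp1. The windows of Cd68, Mrc1 and Cybb are shown as examples with a match. These genes come from 3 roles below (a general, a resident-type and an oxidative burst gene) and follow the 4-tumor pattern. Cd163, Folr2 and Ncf1, of the same roles but without a match, follow that pattern too. Each window shown is written 5′ to 3′ on the gene's strand, and capitals mark the reverse complement of GAGGAA. The windows lie at chr10:54882442-54882691 on the minus strand (Cd68), chr17:82157475-82157724 on the plus strand (Mrc1) and chrX:16065066-16065315 on the minus strand (Cybb).
Cd68: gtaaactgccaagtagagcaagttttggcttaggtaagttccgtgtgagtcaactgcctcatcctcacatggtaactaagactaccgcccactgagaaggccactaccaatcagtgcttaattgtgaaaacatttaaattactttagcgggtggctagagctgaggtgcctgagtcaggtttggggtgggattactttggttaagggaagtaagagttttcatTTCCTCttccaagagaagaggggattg
Mrc1: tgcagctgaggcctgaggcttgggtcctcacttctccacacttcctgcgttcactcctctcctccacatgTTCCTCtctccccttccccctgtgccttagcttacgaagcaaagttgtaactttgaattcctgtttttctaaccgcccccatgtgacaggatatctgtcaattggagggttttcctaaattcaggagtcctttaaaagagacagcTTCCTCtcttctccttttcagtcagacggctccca
Cybb: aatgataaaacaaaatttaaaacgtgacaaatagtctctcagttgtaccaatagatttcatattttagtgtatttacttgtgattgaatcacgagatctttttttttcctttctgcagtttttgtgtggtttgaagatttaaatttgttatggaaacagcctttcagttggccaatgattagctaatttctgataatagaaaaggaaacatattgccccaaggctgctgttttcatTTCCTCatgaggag

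Per-array values below are given in the order 09I1, 11D2, 12I1, 29I1 and 43D1, and mean changes carry the limma standard error (n = 5 tumors). Among the lineage regulators and growth factor receptors, 4 of 5 listed genes were measured, 2 with mean changes above 0 and 2 below. Csf1r, the receptor for CSF1 and interleukin 34 on which macrophages depend, had levels of 7.62, 8.43, 7.70, 7.80 and 8.07 in final samples, against 7.87, 7.69, 8.47, 9.30 and 7.56 in basal samples. All final samples lay inside the basal range, and the basal biopsy of 29I1 was the highest array. The mean change was -0.25 ± 0.33 (limma adjusted p = 0.977). Irf8, a transcription factor of monocytes, dendritic cells and B cells, had levels of 7.59, 7.66, 7.71, 7.54 and 7.39 in final samples, against 7.58, 7.65, 7.98, 9.07 and 7.19 in basal samples. The basal biopsy of 29I1 was more than 1 log2 unit above every other array, and the 5 final samples differed little. Csf2ra, the GM-CSF receptor's binding chain, changed by 1.36 in 09I1, but by -1.19 in 29I1 and 0.43 in 43D1. Csf2rb, the shared signalling chain, had changes no larger than 0.31 in any tumor and the smallest standard error of the list (0.15 ± 0.13). Its levels were 5.36 to 5.66 in final samples and 5.06 to 5.58 in basal samples. Every array thus lay below the lowest array median of 5.93, and the part of this dim signal in the small changes was not tested.

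Leukocyte-wide genes are expressed by lymphocytes as well as myeloid cells. All 4 were measured, and their median change was 1.16 in 11D2 and 0.91 in 43D1. It was below 0 elsewhere, at -0.23 in 12I1, -0.72 in 29I1 and -0.88 in 09I1. Ptprc, which encodes the leukocyte surface phosphatase CD45, had levels of 7.10, 9.53, 8.93, 9.17 and 8.99 in final samples, against 8.43, 8.36, 9.27, 9.73 and 7.94 in basal samples. The final array of 09I1 was the lowest of the 10, and the mean change was -0.0014 ± 0.38, or 0.33 without 09I1. Cd53, a leukocyte tetraspanin, had levels of 8.40, 10.38, 9.70, 9.69 and 9.66 in final samples, against 9.11, 9.23, 10.02, 10.85 and 8.28 in basal samples. The lysosomal gene Laptm5 was higher by 1.29 in 11D2 and by 0.76 in 43D1, with a change of -0.84 in 29I1. Lcp1, an actin-bundling protein also made by some carcinoma cells, was the one member not higher in 43D1 (-0.33).

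The 6 general macrophage genes were all measured, and none departed in sign from the list in 4 tumors: all 6 were higher in 11D2 and in 43D1, and 0 were higher in 12I1 and in 29I1. The median change was 0.80 in 11D2 and 1.25 in 43D1, against -0.72 in 12I1 and -1.48 in 29I1. Cd68, a lysosomal glycoprotein of macrophages, had levels of 8.78, 9.24, 8.54, 8.49 and 8.96 in final samples, against 8.85, 8.46, 9.40, 10.03 and 7.73 in basal samples. The 5 final samples spanned well under 1 log2 unit, while the basal biopsies of 29I1 and 43D1 lay at the high and low ends. The mean change was -0.09 ± 0.40. Lyz2, macrophage lysozyme, had levels of 11.91, 12.46, 12.42, 11.97 and 13.10 in final samples, against 11.96, 12.13, 12.76, 13.61 and 11.61 in basal samples. Its changes were -1.65 in 29I1 and 1.48 in 43D1 and averaged -0.05 ± 0.39.

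Adgre1, which encodes an adhesion receptor used as a macrophage marker, had levels of 7.34, 7.92, 7.49, 7.35 and 8.32 in final samples, against 8.01, 7.10, 8.47, 8.67 and 7.04 in basal samples. Ms4a7, a four-span membrane protein of macrophages, had the widest basal spread of the members, with levels of 7.36, 8.57, 7.61, 7.96 and 7.67 in final samples, against 7.43, 7.50, 9.07, 9.50 and 6.38 in basal samples. In both genes 12I1 and 29I1 began high and 43D1 began low. Aif1, the calcium-binding protein IBA1, was higher by 0.84 in 11D2 and by 0.85 in 43D1, with a change of -1.43 in 29I1. Mpeg1, a pore-forming protein of the phagosome, changed by -1.77 in 09I1, where Cd68 and Lyz2 had changes near 0, and by 0.86 in 43D1. It had a mean change of -0.42 ± 0.37, or -0.09 without 09I1.

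**Figure D2:**
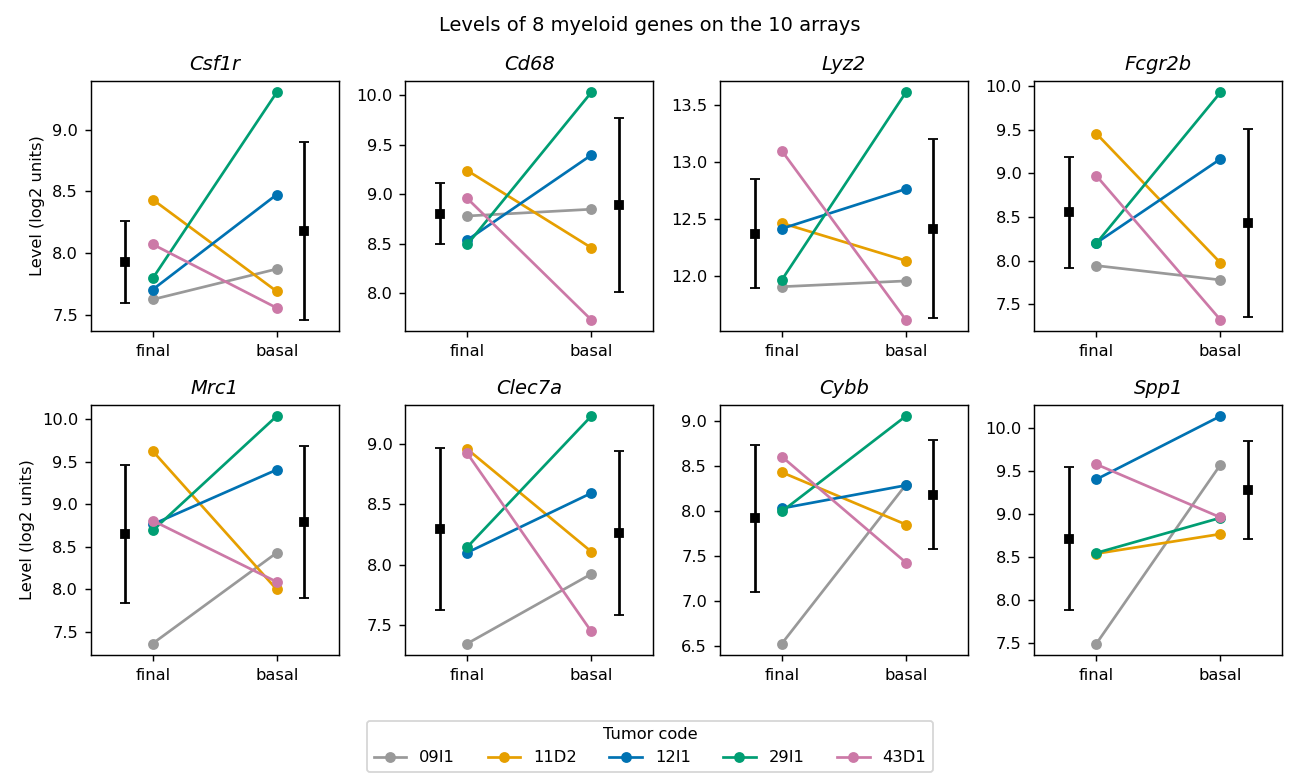
Levels in log2 units of 8 myeloid genes on each array, final at the left and basal at the right of each panel, with a line joining the 2 arrays of a tumor and black squares with bars for the mean ± SD of 5 arrays. For Csf1r, Cd68, Lyz2 and Fcgr2b the 29I1 line (green) starts highest at the basal end and the 43D1 line (pink) starts lowest, and the lines cross towards a narrower range of final values. Spp1 does not show that order. The final range was wider than the basal range for Mrc1 (2.27 against 2.04), Cybb (2.07 against 1.63) and Spp1 (2.09 against 1.37).

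Fc receptors and their signalling partners let myeloid cells respond to antibody. All 6 were measured. In 43D1 all 6 were higher, against 5 in 11D2 and 4 in 09I1, while Lyn alone was higher in 12I1 and 0 were in 29I1. Lyn was higher in 12I1 by only 0.06, and its dimmer probe set gave -0.27 there. Fcgr2b, the inhibitory IgG receptor, had levels of 7.94, 9.46, 8.20, 8.20 and 8.97 in final samples, against 7.78, 7.98, 9.17, 9.93 and 7.32 in basal samples. It had the highest change of any member in 43D1 (1.65) and a change of -1.73 in 29I1, and its mean change was 0.12 ± 0.51. Fcgr3a, an activating IgG receptor, had levels of 7.71, 6.79, 7.40, 7.01 and 7.27 in final samples, against 7.95, 7.57, 8.26, 8.86 and 6.44 in basal samples. It had a change of -0.79 in 11D2, where Fcgr2b had one of 1.48, and its mean change of -0.58 ± 0.35 was the lowest of the members. The Fc gamma receptor genes are close relatives, and whether their probe sets take up each other's transcripts was not tested.

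Tyrobp and Fcer1g encode the small adaptors DAP12 and the Fc receptor gamma chain, which carry the activating signal of many myeloid receptors. Tyrobp had levels of 9.42, 9.24, 8.68, 8.72 and 8.83 in final samples, against 8.92, 8.83, 9.44, 10.10 and 8.10 in basal samples. Fcer1g had levels of 10.97, 10.57, 10.25, 10.09 and 10.47 in final samples, against 10.48, 10.13, 10.80, 11.45 and 9.90 in basal samples. The adaptors had like changes in every tumor, at 0.50 for Tyrobp and 0.49 for Fcer1g in 09I1, and at 0.41 and 0.44 in 11D2. In 12I1 they changed by -0.76 and -0.55, in 29I1 by -1.38 and -1.37, and in 43D1 by 0.74 and 0.57. Fcgr1a, the high-affinity IgG receptor, was higher by 0.93 in 09I1 and by 0.76 in 43D1, with a change of -1.03 in 29I1. Lyn, a Src-family kinase also used by B cells and mast cells, had a change of -1.84 in 09I1 and changes between -0.48 and 0.53 in the other tumors.

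Resident-type and scavenger receptors mark tissue macrophages with clearance functions, and 3 of the 7 listed genes were measured. All 3 were higher in 11D2 and in 43D1 and lower in 12I1 and in 29I1, and their median of 1.63 in 11D2 exceeded that of 0.82 in 43D1. Mrc1, the mannose receptor CD206, had levels of 7.36, 9.63, 8.76, 8.69 and 8.81 in final samples, against 8.43, 7.997, 9.41, 10.04 and 8.09 in basal samples. Cd163, the haemoglobin-haptoglobin scavenger receptor, had levels of 6.18, 6.70, 6.17, 5.25 and 6.61 in final samples, against 5.59, 4.64, 7.01, 6.96 and 5.30 in basal samples. Its change of 2.06 in 11D2 was the highest of any member in any tumor. That change started from a dim basal level of 4.64, below the lowest array median of 5.93. Folr2, a folate receptor of resident macrophages, had levels of 8.33, 8.90, 7.96, 8.62 and 8.22 in final samples, against 9.36, 7.28, 8.74, 9.21 and 7.40 in basal samples. In all 3 genes the basal biopsy of 11D2 was the lowest array of its group, in place of 43D1. The mean changes were -0.14 ± 0.44 for Mrc1, 0.28 ± 0.53 for Cd163 and 0.01 ± 0.41 for Folr2, each well within its error. Without 09I1 they were 0.09 for Mrc1, 0.20 for Cd163 and 0.27 for Folr2.

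Pattern recognition receptors were the least uniform role. All 4 were measured and all 4 were higher in 43D1, but only 2 were higher in 11D2. The number was also 2 in 12I1, and 1 in 29I1. Cd14, the co-receptor for bacterial lipopolysaccharide, had levels of 10.85, 11.57, 11.04, 11.38 and 11.10 in final samples, against 10.68, 11.71, 11.51, 11.15 and 9.83 in basal samples. The basal biopsy of 43D1 was the lowest of the 10 arrays, and Cd14 was the 1 member higher in 29I1 (0.23). Tlr2, which senses bacterial lipoproteins, had changes of 1.08 in 43D1 and -0.65 in 29I1, and the other tumors lay between -0.05 and 0.23. Tlr4, the lipopolysaccharide receptor, was higher by 0.60 in 43D1 and by 0.52 in 12I1, with a change of -0.81 in 29I1. Clec7a, the beta-glucan receptor dectin-1, followed the macrophage genes instead, with levels of 7.35, 8.95, 8.10, 8.15 and 8.92 in final samples, against 7.92, 8.11, 8.59, 9.23 and 7.45 in basal samples.

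Of the 4 phagosome and oxidative burst genes, the 3 that encode subunits of the NADPH oxidase were measured. All 3 were higher in 11D2 and in 43D1 and lower in 12I1 and in 29I1. Cybb, the catalytic membrane subunit, had levels of 6.53, 8.43, 8.03, 7.998 and 8.61 in final samples, against 8.29, 7.85, 8.29, 9.06 and 7.43 in basal samples. Ncf4, a cytosolic subunit, had levels of 8.05, 7.75, 7.27, 7.10 and 7.16 in final samples, against 7.24, 7.09, 8.15, 8.63 and 6.82 in basal samples. In 09I1 the changes of the subunits differed, with -1.76 for Cybb, 0.82 for Ncf4 and 0.34 for Ncf1, the organizer subunit. These changes rest on the final array of 09I1, which stood apart, and its part in the difference was not tested. In the other tumors Ncf1 changed by -0.68 to 0.45. Ncf1 was dim, at 4.80 to 5.37 in final samples and 4.82 to 5.48 in basal samples. Every array thus lay below the lowest array median of 5.93.

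The activation and lipid-associated genes were all measured, and their median mean change of -0.44, or -0.27 without 09I1, was the lowest of the 8 roles either way. Cd86, the costimulatory ligand of T cells, had levels of 5.96, 6.33, 5.74, 5.93 and 5.96 in final samples, against 5.64, 5.28, 6.03, 7.07 and 5.10 in basal samples. Trem2, a lipid-sensing receptor that signals through DAP12, had levels of 6.39, 6.68, 5.78, 6.15 and 6.58 in final samples, against 6.53, 6.16, 7.10, 7.42 and 5.95 in basal samples. Both kept the order of the general macrophage genes, with 29I1 highest and 43D1 lowest among the basal biopsies. Gpnmb, a glycoprotein of lipid-laden macrophages and melanocytes, had levels of 9.42, 9.71, 9.63, 9.56 and 10.70 in final samples, against 10.79, 9.30, 10.88, 10.20 and 10.64 in basal samples. Its mean change of -0.55 ± 0.28 had the smallest p of the members, with a limma adjusted p of 0.977 over all probe sets, and it was lower in 3 of 5 tumors. Without 09I1 the mean change was -0.35.

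Spp1, osteopontin, is secreted by macrophages and also by mammary epithelium. It had levels of 7.49, 8.54, 9.40, 8.55 and 9.58 in final samples, against 9.57, 8.77, 10.14, 8.96 and 8.96 in basal samples. It was lower in 4 of 5 tumors, with -2.08 in 09I1 as the lowest change of any member in any tumor. The mean change was -0.57 ± 0.35 (limma adjusted p = 0.977), and -0.19 without 09I1. For both Spp1 and Gpnmb the highest basal biopsy was 12I1 and the lowest 11D2, unlike the general macrophage genes.

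For most members the basal biopsies were more spread out than the final samples. The basal biopsy of 29I1 was the highest of the 5 basal arrays for 27 of the 34 members (23.1% of all genes), and that of 43D1 the lowest for 26 (22.1% of all genes). Among the final arrays, 11D2 was the highest for 18 members (12.4% of all genes) and 09I1 the lowest for 18 (31.7% of all genes). The SD over the 5 final arrays was below that over the 5 basal arrays for 26 members, where 39.1% of all genes had a smaller final SD. Without 09I1 the number was 33, with Tlr4 as the exception, and the share of all genes was 64.1%. The members' median SD was 0.44 over final arrays and 0.72 over basal arrays, against 0.31 and 0.23 for all genes. Without 09I1 it was 0.31 over final arrays and 0.80 over basal arrays, against 0.17 and 0.21 for all genes. These orders and the SD comparison were picked with the values in view and are given without a test.

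**Figure D3:**
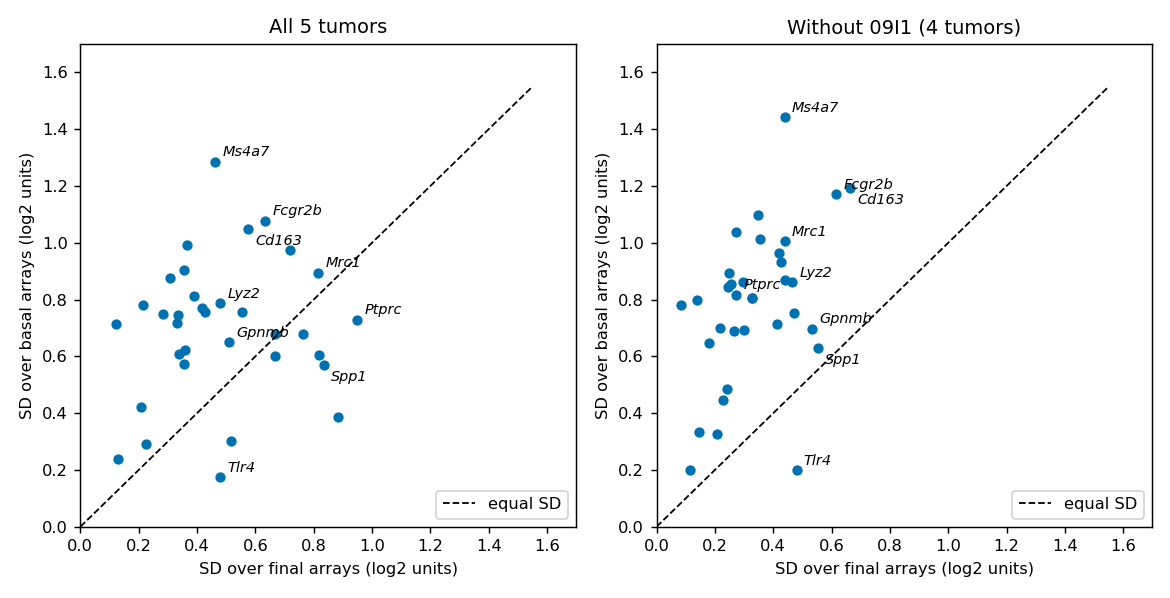
Standard deviation of each of the 34 myeloid genes over final arrays (horizontal axis) against that over basal arrays (vertical axis), in log2 units, for all 5 tumors at the left and without 09I1 at the right, with a dashed line at equal SD. With all tumors 26 of the 34 points lie above the line, and without 09I1 all but Tlr4 do.

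The other myeloid pathway genes, such as integrin chains, complement C1q subunits, Src-family and Tec kinases and actin regulators of leukocytes, were tested in the same fit. Of 36 listed, 30 were tested (Csf2 was under the filter) and 0 passed the limma threshold, with 11 mean changes above 0 and 19 below and a median of -0.05. Within tumors, 28 of the 30 were higher in 43D1 and 26 in 11D2. The number was 12 in 09I1 and only 2 in each of 12I1 and 29I1. The 4 with the smallest p were Lilrb4, an inhibitory receptor, at -0.71 ± 0.38, Plek, a protein kinase C substrate, at -0.41 ± 0.29, Runx1, a blood lineage transcription factor, at -0.34 ± 0.26, and Fgr, a Src-family kinase, at 0.24 ± 0.26. Each had a limma adjusted p of 0.977.

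Markers of other cell types had the myeloid genes' direction in some tumors and the opposite one in others. T and NK cell markers were higher in 16 of 17 genes in both 43D1 and 11D2 and in 4 of 17 in 29I1, like the myeloid genes, but in 16 of 17 in 09I1 and 11 of 17 in 12I1. All 17 T and NK markers had mean changes above 0, with a median of 0.53 against -0.07 for the members, though 0 passed the limma threshold. The log2 of their summed level was 11.17 to 12.15 on final arrays and 10.20 to 12.53 on basal arrays, with Trat1 under the filter. Fibroblast and matrix genes were higher in 12 of 12 in 11D2 and lower in 11 of 12 in 29I1, but higher in 11 of 12 in 12I1 and in only 2 of 12 in 43D1. Their summed level was 13.91 to 15.26 on final arrays and 14.17 to 15.18 on basal arrays, on the same scale. Mast cell and eosinophil genes ran the opposite way in 29I1 (10 of 10 higher) and 43D1 (2 of 10 higher). They ran the same way as the myeloid genes in 11D2 (10 of 10 higher) and 12I1 (2 of 10 higher). Their summed level was 11.54 to 12.30 on final arrays and 11.26 to 13.54 on basal arrays, with Epx under the filter. Mammary epithelium markers had medians of 0.29 in 29I1 and 0.26 in 43D1, with a summed level of 14.66 to 15.33 on final arrays and 14.96 to 15.28 on basal arrays. The part of these cell types in the myeloid changes was not tested.

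Markers of the other blood lineages were less well covered. Neutrophil markers had 4 of 12 tested, with Csf3r and Mmp8 under the filter, and medians of -1.27 in 29I1 and -0.37 in 43D1. The log2 of their summed level was 6.63 to 7.96 on final arrays and 7.24 to 8.51 on basal arrays. B and plasma cell markers had 5 of 12 tested, with Ms4a1, Cr2, Pou2af1 and Tnfrsf17 under the filter. Their medians were -0.88 in 12I1 (0 of 5 higher), -0.08 in 29I1, 0.10 in 11D2, 0.17 in 43D1 and 0.33 in 09I1. Dendritic cell markers had 4 of 10 tested, with medians of -0.27 in 29I1 and 0.14 in 43D1. Endothelial genes were higher in 0 of 9 in 29I1, with a median of -0.73, and had medians of 0.06 to 0.33 in the other tumors. Adipocyte genes had medians of -0.84 in 29I1, 1.78 in 11D2, 0.27 in 12I1 and 0.83 in both 09I1 and 43D1. All 9 adipocyte genes tested had mean changes above 0 (median 0.54), beside 52.7% of all genes, and 0 passed the limma threshold. Red blood cell genes were below 0 in mean for all 4 tested, with medians below 0 in every tumor. The lowest were those of 12I1 (-2.90) and 29I1 (-1.87) and the highest that of 43D1 (-0.72), and 11D2, where most myeloid genes were higher, had -1.24.

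**Figure D4:**
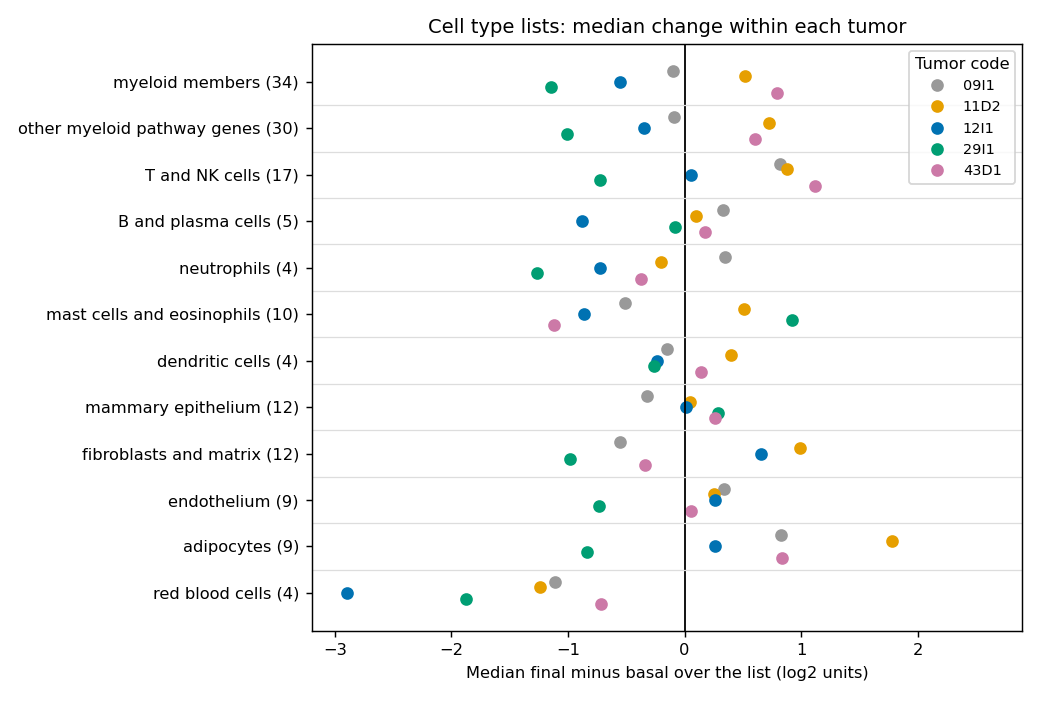
Median final minus basal over each gene list (rows, with the number of tested genes in parentheses) in log2 units, with 1 point per tumor. The myeloid members and the other myeloid pathway genes both run from 29I1 (-1.15 and -1.01) to 43D1 and 11D2 on the right, whereas mast cell and eosinophil genes place 29I1 on the right and 43D1 on the left. In each of these lists 11D2 lies above 0 and 12I1 below 0.

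In 09I1 the probe sets of a gene disagreed more than elsewhere at the median, though not for Laptm5, Aif1 and Trem2. Of the 34 members, 8 had 2 probe sets, and the gap between their changes had a median of 0.54 log2 units in 09I1, against 0.12 to 0.24 in the other tumors. For Lyn the brighter probe set gave -1.84 and the dimmer one 0.56 in 09I1. For Ptprc they gave -1.33 and -2.46, and for Cybb -1.76 and -2.27. For Trem2 the brighter gave -0.14 and the dimmer 0.43, and for Cd86 they gave 0.32 and -0.40, so the direction in 09I1 depended on the probe set for Lyn, Trem2 and Cd86, and for Aif1 at changes near 0. Outside 09I1 the widest gap was that of Aif1 in 29I1, where the brighter probe set gave -1.43 and a second one, at a mean level of only 4.40, gave 0.15. Signs also differed for Ptprc in 12I1 (-0.34 and 0.08). For Lyn they differed in 11D2 (0.22 and -0.05) and in 12I1 (0.06 and -0.27). The beta-actin control difference of 2.61 on the final array of 09I1 stands beside the gaps in 09I1, and its part in them was not tested.

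**Figure D5:**
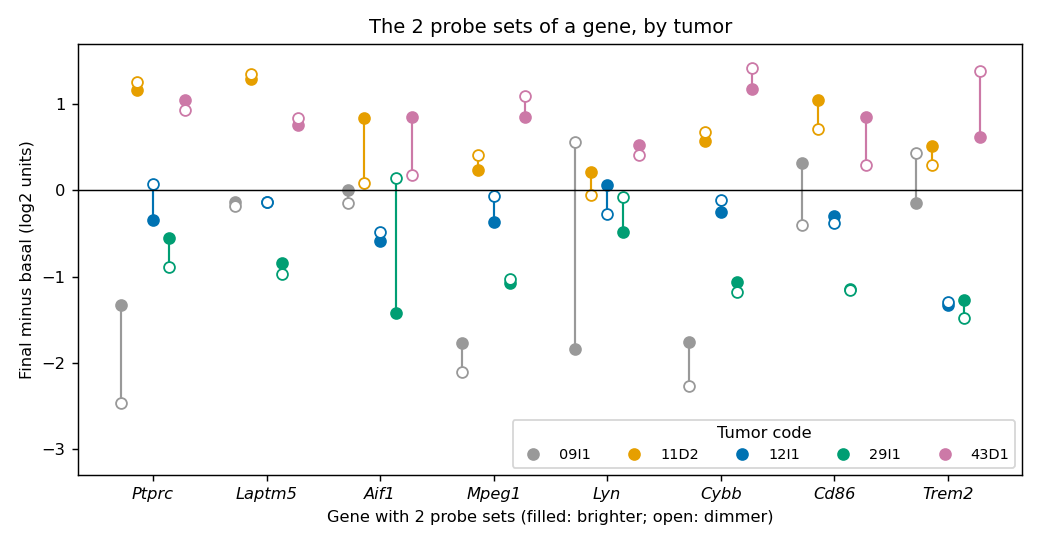
Final minus basal in log2 units for the 8 myeloid genes with 2 probe sets, by tumor (colour), with the brighter probe set filled and the dimmer open. The pairs in 09I1 (grey) lie up to 2.40 log2 units apart (Lyn), while Laptm5 pairs lie within 0.13 in every tumor.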

How the data were processed

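Expression was measured on 10 Affymetrix rat genome arrays. The deposited log2 values had been normalized by the authors with robust multichip averaging, per the labels and the design text. The filter on control sequences and dim signals that the design text names is not seen in this table, which holds 57 control probe sets. Here those controls and the dimmest 25% of the remaining probe sets, by mean level, were dropped, and 23281 stayed. A paired limma model (version 3.58.1, R 4.3.3) with a term for each tumor and an intensity trend gave the final minus basal change; the design text calls the samples paired. P-values were adjusted by Benjamini-Hochberg over all tested probe sets, at a threshold of 0.05. The fit was tested on simulated arrays.

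A gene is its brightest probe set with that symbol alone. All 34 measured members matched RefSeq by Entrez identifier with the same symbol. Members, roles and other lists were chosen with earlier results of these data known. Named genes were all measured members and, of the other myeloid pathway genes, the 4 with the smallest p. Changes within a tumor compare 1 array with 1 array.

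The labels' codes pair the samples. Deviations from the group means correlated within tumors between -0.15 and 0.22 across probe sets. The random block gave a within-tumor correlation of 0.0017. Correlations between samples of different tumors are not given, so these values do not check the pairing, which rests on the labels. No 2 arrays held identical values. The number of arrays limits the precision. Alternatives were no block or a random block, other filters, cyclic loess, centring on medians, array weights, no trend, the methods' t-test, the mean over probe sets and leaving out each tumor. Figures were drawn with matplotlib 3.10.9.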

Additional observations from a re-analysis of the deposited data

Results flagged for a closer look

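In 5 of 79 sets of 5 values 1 sample lay far from the other 4, where chance gives about 4 if the sets are independent. The genes share the same arrays, so the sets are not independent and no conclusion is drawn from that number. Of the 5 flagged samples, 4 were the final array of 09I1. Ptprc stood at 7.10 there, against 8.93 to 9.53 on the other final arrays. Lcp1 stood at 9.95, against 10.92 to 11.27, and Mpeg1 at 8.13, against 9.75 to 9.94. Lyn stood at 6.26, against 8.02 to 8.51. The remaining one was Gpnmb on the final array of 43D1, at 10.70 against 9.42 to 9.71.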

How the results depend on the processing

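The count of members called was 0 in the paired fit, with no replicate block, with a random block and under every other alternative listed, leaving out each tumor included. The smallest adjusted p among members was 0.977 with limma, 0.973 with no replicate block, 0.526 with array weights and 0.714 to 0.999 when 1 tumor was left out. Over all genes the count was also 0 under each alternative except the mean over probe sets, which was run for the members only. The members' median change was -0.07 and ran from -0.29 to 0.20 when 1 tumor was left out, and its sign was positive with array weights (0.11). The number of members higher in 12I1 was 4, but 2 with cyclic loess and 2 after centring on array medians, and in 29I1 it was 1, but 2 after centring. The other counts within tumors stayed within 1.5 times. The SD comparison without 09I1 was added after the values had been seen.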
